A study of Mus musculus with 5 samples.

Results

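The genes described here are 4 that mark B cells (Cd79a, Cd79b, Ms4a1 and Ighm) and 4 of MHC class II antigen presentation (Cd74, H2-Aa, H2-Ab1 and H2-Eb1). They were chosen by symbol, and all 8 were found among the 19127 genes of the deposited table. They were read in 5 RNA sequencing libraries made from mouse blood cells that were sorted as neutrophils on Ly6G after red cells had been lysed. In 2 libraries, numbered 2 and 3, the mice were BMALf/f x Mrp8Cre, with a floxed gene for the clock activator BMAL1 (Arntl), and in 3 libraries, numbered 1, 2 and 3, they were CXCR4f/f x Mrp8Cre, with a floxed gene for the chemokine receptor CXCR4. All donors were males of 7 to 10 weeks, blood was taken at Zeitgeber time 13 (20 h by the clock), and every mouse carried the Mrp8 Cre. That Cre is driven by a promoter active mainly in granulocytes, so it is not directed at B cells. No Cre-free or unfloxed group was analysed here, so a difference cannot be assigned to either allele. Nothing in the labels ties each library to its own animal, and the p-values therefore reflect the spread among these libraries, part of which may be technical.

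A B cell carries an antigen receptor made of membrane immunoglobulin and the signalling chains CD79A and CD79B, and it displays CD20, encoded by Ms4a1. MHC class II molecules are alpha and beta chain dimers that present peptides to CD4+ T cells. The invariant chain CD74 escorts them to the endosome, where H2-DM helps to load the peptide. B cells, dendritic cells and macrophages make class II constitutively, some endothelial cells also make it, and resting mouse neutrophils make little. In bulk libraries fewer cells of a type and less RNA per cell cannot be told apart.

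The promoters of class II genes share an X box, bound by RFX, and a Y box, bound by NF-Y, on which the coactivator CIITA (gene Ciita) assembles. The sequences below show these letters for the class II genes H2-Aa and H2-Eb1. The promoter of the B cell gene Cd79a, in which EBF1 is known to bind, is printed with them. Of the 8 genes, only these 3 have a promoter printed here, taken from the RefSeq promoter table of GRCm38.p6. The promoters of the other class II genes are not printed, so the letters shown do not speak for them. Each run is the 120 bases just before the gene start in GENCODE M21, 5′ to 3′ on the gene's own strand. They lie at chr17:34287824-34287943 (minus strand, H2-Aa), chr17:34305747-34305866 (plus strand, H2-Eb1) and chr7:24897261-24897380 (plus strand, Cd79a). Capitals mark GCAACT, which lies in the X box, and CTGATTGG, which is the Y box, in the class II genes, and CAAGGGAAT, within the EBF1 site, in Cd79a.
H2-Aa: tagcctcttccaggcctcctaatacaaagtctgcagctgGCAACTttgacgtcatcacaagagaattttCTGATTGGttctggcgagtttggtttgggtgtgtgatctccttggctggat
H2-Eb1: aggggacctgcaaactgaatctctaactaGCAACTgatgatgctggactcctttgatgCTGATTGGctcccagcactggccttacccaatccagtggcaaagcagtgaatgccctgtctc
Cd79a: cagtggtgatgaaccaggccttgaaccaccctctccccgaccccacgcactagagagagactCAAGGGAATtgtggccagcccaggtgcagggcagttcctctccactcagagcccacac

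The motifs were chosen after these letters had been read, and a match is a description of the letters only. GCAACT and CTGATTGG were 24 bases apart in H2-Aa and 23 bases apart in H2-Eb1, and they do not overlap. Searched on both strands of the 32851 promoter windows of 300 bases, GCAACT was in 10.89% and CTGATTGG in 4.10%. The pair in this order on 1 strand, with 15 to 30 bases between, was in 5 windows, those of H2-Aa, H2-Eb1, H2-Eb2, Gstz1 and Tigd3. CAAGGGAAT was in 0.244% of windows.

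The libraries differed in depth and in content. Values are normalised counts as deposited, and whole reads could be recovered from them. Recovered reads numbered 2869625 and 4058914 in Bmal1-floxed libraries 2 and 3, and 356872, 4646391 and 9101826 in Cxcr4-floxed libraries 1, 2 and 3. A gene with 3 reads, taken here as the floor of detection, has a normalised count of 6.46 in Cxcr4-floxed library 1 and of 0.351 to 0.902 in the other 4. The sort label was checked on 12 core neutrophil markers, which summed to 9267 and 6747 in Bmal1-floxed libraries 2 and 3, and to 16665, 4384 and 428.2 in Cxcr4-floxed libraries 1, 2 and 3. By this sum Cxcr4-floxed library 3 stood apart, with the abundant neutrophil alarmins S100a8 and S100a9 at 75.9 and 137.1, where the other 4 libraries had 848 to 2531 and 2198 to 6509. Ly6g, the gene of the sort marker, had another order and was sparse. It had 6.31 and 5.16 in Bmal1-floxed libraries 2 and 3 (21 and 23 reads). It had 30.1, 0 and 1.05 in Cxcr4-floxed libraries 1, 2 and 3 (14, 0 and 9 reads), and so was not detected in Cxcr4-floxed library 2. All 12 endothelial markers had at least 3 reads in every library and summed to 4383 and 10990 in Bmal1-floxed libraries 2 and 3, against 5433, 9119 and 18533 in Cxcr4-floxed libraries 1, 2 and 3. Of the floxed genes, Cxcr4 was higher in both Bmal1-floxed libraries (398.6 and 127.8) than in all Cxcr4-floxed libraries (15.1, 72.2 and 4.801), while Arntl overlapped between the groups (4.81 and 27.6, against 15.1, 1.90 and 1.05) and so did not follow its label.

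None of the 8 genes differed between the groups past the adjusted threshold, and the B cell and class II genes did not share one pattern across libraries. By limma on log2(normalised count + 1), 0 of 8 had an adjusted p under 0.05, where 0% of the 14632 genes tested did. At an unadjusted p under 0.05, limma had 2 of the 8 (Ighm and Cd74), where it had 612 of all genes, or 4.18%. edgeR on the recovered reads also called 0% of genes, with 524 or 3.58% at an unadjusted p under 0.05, which included Cd74 alone of the 8. DESeq2 called 13 of 11216, or 0.116%, and none of the 8, and had 4.66% of genes at an unadjusted p under 0.05, again with Cd74 alone of the 8. All 8 passed the filter on low values. Differences below are Bmal1-floxed minus Cxcr4-floxed on the log2 scale with a pseudocount of 1, which understates those of low genes. Their median was 0.94 over the 4 B cell genes and -1.01 over the 4 class II genes, beside 0.11 over all genes tested. Single libraries moved these medians. That of the class II genes was -0.094 without Cxcr4-floxed library 2, -0.44 without Bmal1-floxed library 3, -1.57 without Bmal1-floxed library 2 and -1.70 without Cxcr4-floxed library 3, and that of the B cell genes was 1.47 without Cxcr4-floxed library 1.

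**Figure D1:**
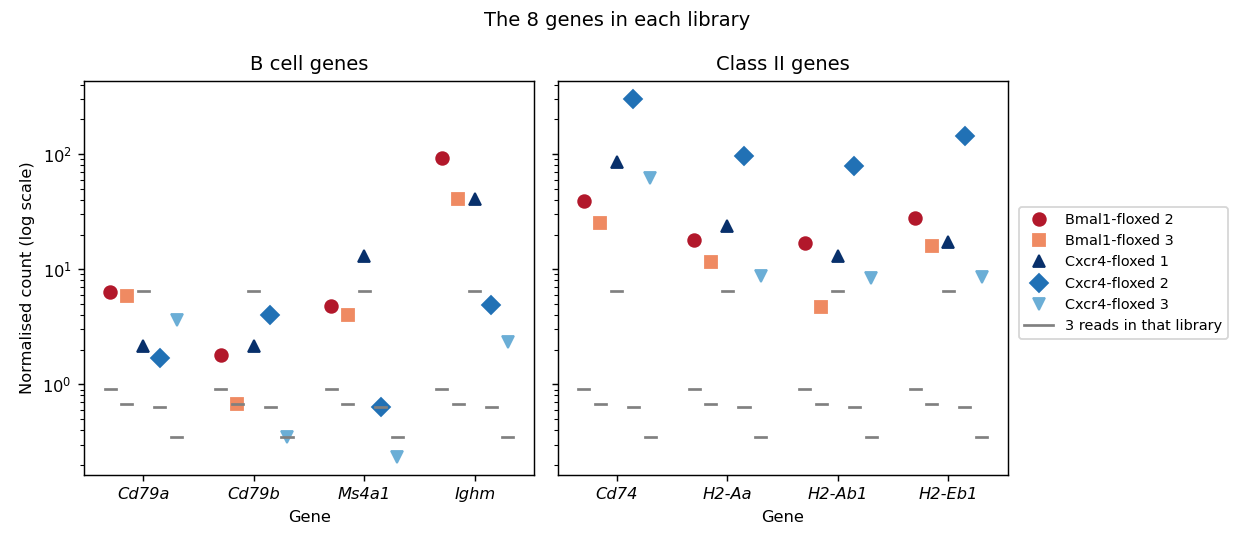
Normalised counts (log axis) of the 4 B cell genes and the 4 class II genes, with 1 point per library and a grey bar at the value of 3 reads in that library. Ighm stands above the other B cell genes in both Bmal1-floxed libraries and in Cxcr4-floxed library 1, and all 4 class II genes are highest in Cxcr4-floxed library 2.

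Among the B cell genes Ighm, the constant region of the IgM heavy chain (chromosome 12, 113418558 to 113422730, minus strand of GRCm38, an immunoglobulin constant gene), had the most reads in both Bmal1-floxed libraries. It had 93.2 and 40.6 normalised counts in Bmal1-floxed libraries 2 and 3, from 310 and 181 reads. It had 40.9, 4.86 and 2.34 in Cxcr4-floxed libraries 1, 2 and 3, from 19, 23 and 20 reads. The groups overlapped, because Cxcr4-floxed library 1 lay just above Bmal1-floxed library 3, while the other Cxcr4-floxed libraries were far below. The means were 66.9 ± 37.2 (SD, n = 2) in Bmal1-floxed and 16.0 ± 21.6 (SD, n = 3) in Cxcr4-floxed libraries. The difference was 2.74 (SE 1.10), with an adjusted p of 0.9999 by limma (unadjusted p 0.0357). With 1 library left out it ran from 1.998, without Cxcr4-floxed library 3, to 3.82, without Cxcr4-floxed library 1. Core neutrophil markers moved with Ighm at the low end, both being lowest in Cxcr4-floxed library 3 and next lowest in Cxcr4-floxed library 2, and their part in the result was not tested.

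Cd79a, the Ig-alpha signalling chain of the B cell receptor (chromosome 7, 24897381 to 24902197, plus strand, protein-coding), was low everywhere. It had 6.31 and 5.83 normalised counts in Bmal1-floxed libraries 2 and 3 (21 and 26 reads), against 2.15, 1.69 and 3.63 in Cxcr4-floxed libraries 1, 2 and 3 (1, 8 and 31 reads). The groups did not overlap, and Cd79a was the only one of the 8 genes to be higher in this way, as were 13.6% of all genes tested. The value in Cxcr4-floxed library 1 rests on 1 read, below the floor of 6.46 there. The difference was 1.06 (SE 0.92), and limma gave an adjusted p of 0.9999.

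Cd79b, the Ig-beta partner chain (chromosome 11, 106311341 to 106314762, minus strand, protein-coding), was at or under 3 reads in 3 of the 5 libraries. It had 1.804 and 0.673 in Bmal1-floxed libraries 2 and 3 (6 and 3 reads) and 2.15, 4.01 and 0.351 in Cxcr4-floxed libraries 1, 2 and 3 (1, 19 and 3 reads). Its highest value, in Cxcr4-floxed library 2, was in the library where Cd79a was lowest, so the 2 chains of the receptor heterodimer did not vary together. The difference of -0.36 (SE 0.95; limma adjusted p 0.9999) changed sign without Bmal1-floxed library 3 (0.015) or Cxcr4-floxed library 2 (0.069).

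Ms4a1, which encodes the B cell surface protein CD20 (chromosome 19, 11249675 to 11266241, minus strand, protein-coding), had 4.81 and 4.04 in Bmal1-floxed libraries 2 and 3 (16 and 18 reads). It had 12.9, 0.633 and 0.234 in Cxcr4-floxed libraries 1, 2 and 3, from 6, 3 and 2 reads. The order of libraries thus resembled that of Ighm, with the lowest values in Cxcr4-floxed libraries 2 and 3, but the top value came from 6 reads. The difference was 0.83 (SE 1.24; limma adjusted p 0.9999), and without 1 library it ran from 0.18 (Cxcr4-floxed library 3 left out) to 1.93 (Cxcr4-floxed library 1 left out).

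Per kilobase of exon, Ighm stood above the other 3 B cell genes in Bmal1-floxed libraries 2 and 3 (49.4 and 21.5 normalised counts per kilobase) and in Cxcr4-floxed library 1 (21.7). In the same libraries Cd79a had 4.33, 4.001 and 1.48 per kilobase. In Cxcr4-floxed libraries 2 and 3 Ighm had 2.57 and 1.24 per kilobase, below Cd79b (2.80) in library 2 and below Cd79a (2.49) in library 3. As a share of the reads of the 4 genes, Ighm made up 87.8% (exact 95% interval 83.9 to 91.0) and 79.4% (73.5 to 84.4) in Bmal1-floxed libraries 2 and 3. It made up 70.4% (49.8 to 86.2), 43.4% (29.8 to 57.7) and 35.7% (23.4 to 49.6) in Cxcr4-floxed libraries 1, 2 and 3. These intervals cover counting error only and leave out the spread between samples. The reads carry no molecular identifiers, so amplified copies count as separate reads, and the intervals may be too narrow. The wide interval of the shallow Cxcr4-floxed library 1 overlaps those of both Bmal1-floxed libraries and of Cxcr4-floxed library 2.

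**Figure D2:**
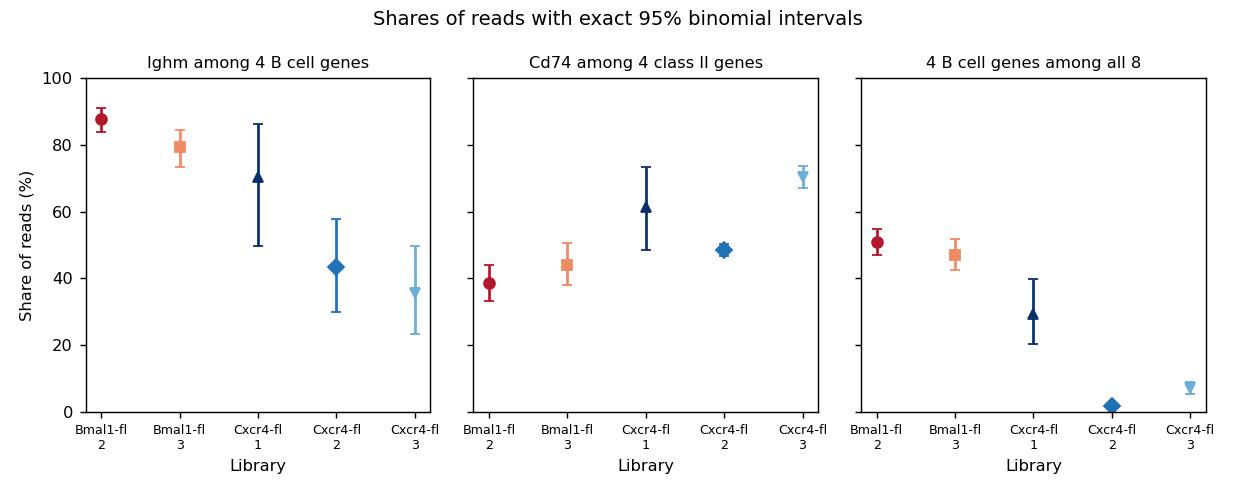
Share of reads (%) in each library, with exact 95% binomial intervals, for Ighm among the 4 B cell genes (left), Cd74 among the 4 class II genes (middle) and the 4 B cell genes among all 8 (right). The B cell genes hold 50.9% and 47.1% of the reads of the 8 genes in Bmal1-floxed libraries 2 and 3, and 29.3%, 1.77% and 7.01% in Cxcr4-floxed libraries 1, 2 and 3.

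The other B cell genes were sparse. Of 19 such genes listed, 18 were in the table, 12 passed the filter, and 0 passed the adjusted threshold in either direction (0 of the 12 had an unadjusted p under 0.05 by limma). Their summed level was 33.4 and 40.4 normalised counts in Bmal1-floxed libraries 2 and 3, and 51.7, 43.9 and 27.4 in Cxcr4-floxed libraries 1, 2 and 3, so the groups overlapped. The median difference over the 12 was 0.27.

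Pax5, the transcription factor that maintains B cell identity, had 4 reads in Bmal1-floxed library 2 and 0 in the other 4 libraries. Igkc, the kappa light chain constant region with which most mouse IgM is paired, had 2.41 and 1.79 normalised counts in Bmal1-floxed libraries 2 and 3, against 0, 11.4 and 0.117 in Cxcr4-floxed libraries 1, 2 and 3. The 0 in the shallow Cxcr4-floxed library 1 allows up to 6.46. The light chain was highest in Cxcr4-floxed library 2, where the heavy chain gene Ighm had 4.86, and it did not follow Ighm.

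Ebf1, which encodes a factor of early B cell commitment that stromal cells also make, had 12.6 and 2.02 in Bmal1-floxed libraries 2 and 3, against 30.1, 22.2 and 2.11 in Cxcr4-floxed libraries 1, 2 and 3. Bank1, a B cell scaffold protein, had 6.91 and 6.95, against 6.46, 4.86 and 0.586. Cd22, an inhibitory receptor of B cells, had 4.51 and 2.69, against 0, 0.422 and 5.39. These 3 genes took different orders across the libraries, and each overlapped between the groups except Bank1. Its lowest Bmal1-floxed value was above its highest Cxcr4-floxed value, as for 13.6% of all genes tested. That highest value, in Cxcr4-floxed library 1, rests on 3 reads, the floor there, so the separation is slight.

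Plasma cell genes were low or differed from Ighm in their order. Of 6 listed, 4 were in the table and 2 were tested, of which 0 passed the adjusted threshold or an unadjusted p under 0.05 by limma. Jchain, the joining chain of secreted IgM, was at 0 in 4 of the 5 libraries and at 1.503, from 5 reads, in Bmal1-floxed library 2, where Ighm was highest. Sdc1, the plasma cell surface proteoglycan syndecan-1 that epithelia also make, had 1.503 and 0.897 in Bmal1-floxed libraries 2 and 3, against 2.15, 0.422 and 2.46 in Cxcr4-floxed libraries 1, 2 and 3. Prdm1, a plasma cell regulator that other cells also use, had 15.03 and 8.30 in Bmal1-floxed libraries 2 and 3, and 30.1, 53.8 and 16.9 in Cxcr4-floxed libraries 1, 2 and 3. Prdm1 was lower in the Bmal1-floxed libraries, with no overlap between the groups, as were 5.22% of all genes tested.

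Kinases and adaptors downstream of the B cell receptor that myeloid cells also use were far more abundant. All 9 tested members of this list had positive differences, as had 8079 of all 14632 genes tested. Their median was 1.81, and 0 passed the adjusted threshold or an unadjusted p under 0.05 by limma. They summed, with Blnk, to 1746 and 1196 in Bmal1-floxed libraries 2 and 3, and to 1220, 701.3 and 232.8 in Cxcr4-floxed libraries 1, 2 and 3. The sum had the order of libraries that Ighm had, but Syk and Lyn had Bmal1-floxed library 3 above Cxcr4-floxed library 1. Syk, the kinase that docks on phosphorylated CD79 chains, had 462.1 and 295.3, against 234.6, 113.2 and 14.2, and Lyn, a Src-family kinase, had 296.7 and 223.3, against 200.2, 134.7 and 102.8. Blnk, the B cell linker adaptor, had 0 and 1 read in Bmal1-floxed libraries 2 and 3, and 0, 1 and 0 in Cxcr4-floxed libraries 1, 2 and 3.

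The class II genes were all highest in Cxcr4-floxed library 2, as were 25.4% of all genes tested. Cd74, the invariant chain (chromosome 18, 60803848 to 60812652, plus strand, protein-coding), had 39.4 and 25.3 normalised counts in Bmal1-floxed libraries 2 and 3 (131 and 113 reads). It had 86.1, 301.3 and 61.4 in Cxcr4-floxed libraries 1, 2 and 3 (40, 1427 and 524 reads). Every Cxcr4-floxed library was above both Bmal1-floxed libraries, and Cd74 was the only one of the 8 genes lower in the Bmal1-floxed group without overlap, as were 5.22% of all genes tested. The means were 32.4 ± 9.93 (SD, n = 2) in Bmal1-floxed and 149.6 ± 132 (SD, n = 3) in Cxcr4-floxed libraries. The difference was -1.85 (SE 0.71), with an adjusted p of 0.9999 by limma (unadjusted p 0.0305). Without Cxcr4-floxed library 2 it was -1.18.

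The alpha chain gene H2-Aa (chromosome 17, 34282744 to 34287823, minus strand, protein-coding) had 18.0 and 11.4 in Bmal1-floxed libraries 2 and 3, against 23.7, 96.7 and 8.78 in Cxcr4-floxed libraries 1, 2 and 3. Its partner beta chain gene H2-Ab1 (chromosome 17, 34257689 to 34269419, plus strand, protein-coding) had 16.8 and 4.71, against 12.9, 79.2 and 8.31. H2-Eb1, the beta chain of the other class II molecule (chromosome 17, 34305867 to 34316674, plus strand, protein-coding), had 28.0 and 15.9, against 17.2, 144.2 and 8.55. For these 3 chains Cxcr4-floxed library 2 was far above every other library, Cxcr4-floxed library 3 was below Bmal1-floxed library 2, and the groups overlapped. In Cxcr4-floxed library 1 the 3 chains rest on 11, 6 and 8 reads.

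The differences of the 3 chains were smaller than or close to their SE, at -0.90 (SE 0.97) for H2-Aa, -1.11 (SE 1.07) for H2-Ab1 and -0.41 (SE 1.10) for H2-Eb1, and limma gave each an adjusted p of 0.9999. They rested on Cxcr4-floxed library 2. Without it they were -0.014, -0.17 and 0.75, so that H2-Eb1 changed sign. Without Cxcr4-floxed library 3 they were -1.67, -1.73 and -1.22, and without Bmal1-floxed library 3 they were -0.59, -0.29 and -0.019. On the recovered reads edgeR put them at -1.56, -1.64 and -1.38, with adjusted p-values of 0.996.

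**Figure D3:**
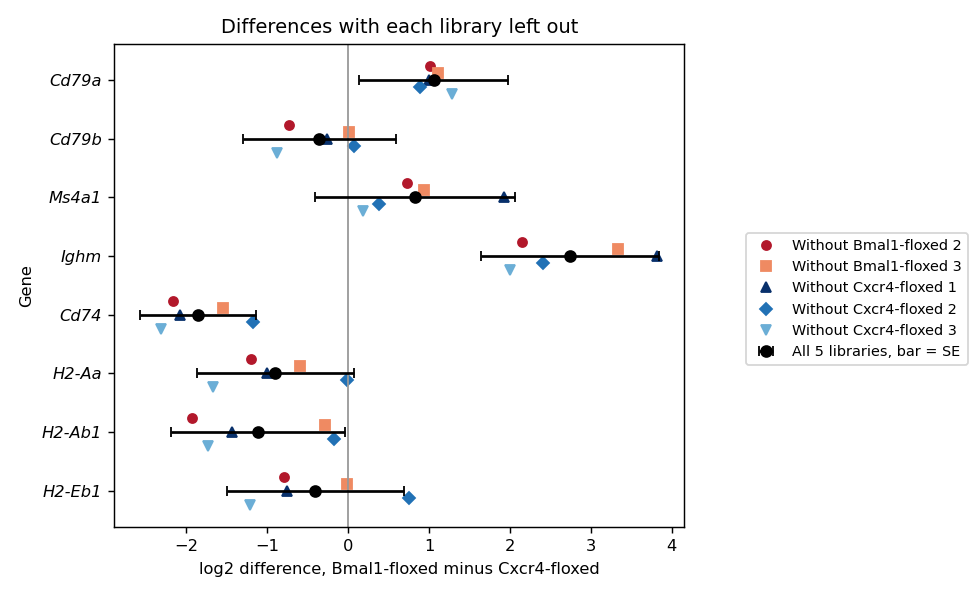
log2 difference (Bmal1-floxed minus Cxcr4-floxed) of each gene from limma with all 5 libraries (black, bar = SE) and with each library left out in turn (coloured). Ighm stays between 1.998 and 3.82 and Cd74 between -2.31 and -1.18, while H2-Eb1 (-1.22 to 0.75) and Cd79b (-0.88 to 0.069) lie on both sides of 0.

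Among the class II genes, Cd74 had the highest level per kilobase of exon in every library and H2-Eb1 the next. Cd74 stood at 23.5 and 15.1 normalised counts per kilobase in Bmal1-floxed libraries 2 and 3, and at 51.3, 179.4 and 36.5 in Cxcr4-floxed libraries 1, 2 and 3. H2-Eb1 stood at 14.4 and 8.19, against 8.86, 74.2 and 4.40 per kilobase. The share of the invariant chain in the reads of the class II genes was taken per library, with intervals that cover counting error and not the spread between samples or amplifications. Cd74 made up 38.5% (exact 95% interval 33.3 to 43.9) and 44.1% (38.0 to 50.5) of the reads of the 4 genes in Bmal1-floxed libraries 2 and 3. It made up 61.5% (48.6 to 73.3), 48.5% (46.7 to 50.3) and 70.5% (67.1 to 73.8) in Cxcr4-floxed libraries 1, 2 and 3. Cxcr4-floxed library 3, the poorest in neutrophil markers, had the highest share, and whether the share differs between conditions was not tested.

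Libraries numbered 2 had more class II than those numbered 3 within each group. The 4 genes summed to 102.2 in Bmal1-floxed library 2 and 57.4 in Bmal1-floxed library 3. They summed to 621.3 in Cxcr4-floxed library 2 and 87.0 in Cxcr4-floxed library 3, with 139.9 in Cxcr4-floxed library 1. Each of the 4 genes had this order in both groups, by ratios of library 2 to library 3 of 1.55 (Cd74) to 3.58 (H2-Ab1) in the Bmal1-floxed group and of 4.91 (Cd74) to 16.9 (H2-Eb1) in the Cxcr4-floxed group. The same order held for the sums of the B cell genes (ratios of 2.08 in the Bmal1-floxed and 1.71 in the Cxcr4-floxed group), the monocyte markers (1.71 and 1.95) and the core neutrophil markers (1.37 and 10.2), beside 1.78 and 7.14 for class II. Not every gene or list had this order. Cd79a ran the other way in the Cxcr4-floxed group (ratio 0.465), and the other B cell genes did in the Bmal1-floxed group (sums of 33.4 and 40.4). The sum of the endothelial markers ran the other way in both groups (0.399 and 0.492). So did that of the other class II pathway genes, at 138.9 and 291.3 in Bmal1-floxed libraries 2 and 3 and 227.8 and 605.2 in Cxcr4-floxed libraries 2 and 3. Of the endothelial markers, Stab2, a scavenger receptor of liver sinusoidal endothelium, had 121.5 and 4096 in Bmal1-floxed libraries 2 and 3 and 140.0 and 5907 in Cxcr4-floxed libraries 2 and 3. No label ties equal numbers to a shared day or batch, and the part of this split in the class II values was not tested.

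The peptide-loading and regulatory genes of class II had no common order across libraries. Of 16 listed, all were in the table, 14 were tested and 0 passed the adjusted threshold in either direction (0 had an unadjusted p under 0.05 by limma), with 6 positive and 8 negative differences and a median of -0.37. Of these 14, 4 were highest in Cxcr4-floxed library 2, a share near the 25.4% of all genes tested. Ciita, the master coactivator of class II, had 3.61 and 1.35 normalised counts in Bmal1-floxed libraries 2 and 3, against 6.46, 23.9 and 0.937 in Cxcr4-floxed libraries 1, 2 and 3. H2-DMa and H2-DMb1 encode the chains of the peptide exchange factor H2-DM. H2-DMa had 6.61 and 0, against 6.46, 43.9 and 3.40, and H2-DMb1 had 1.203 and 0.897, against 0, 56.4 and 2.11. The peak in Cxcr4-floxed library 2 rests on 113 reads for Ciita, 208 for H2-DMa and 267 for H2-DMb1.

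The endosomal proteases and an X box factor had other orders. Lgmn, asparaginyl endopeptidase, had 19.8 and 192.2 in Bmal1-floxed libraries 2 and 3, against 122.7, 41.0 and 482.6 in Cxcr4-floxed libraries 1, 2 and 3, and so was high in the libraries with high Stab2. Ctss, the protease cathepsin S that trims the invariant chain, had 58.9 and 43.3, against 21.5, 26.0 and 31.0. It was higher in the Bmal1-floxed group without overlap, as were 13.6% of all genes tested. Rfx5, a subunit of the factor that binds the X box, had 5.71 and 13.2, against 23.7, 2.11 and 47.0, and was lowest where class II was highest. Of the same list, Rfxap was also lowest there, at 1.48. Rfxank was highest there, with 7.52 and 10.5, against 12.9, 27.0 and 1.99.

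**Figure D4:**
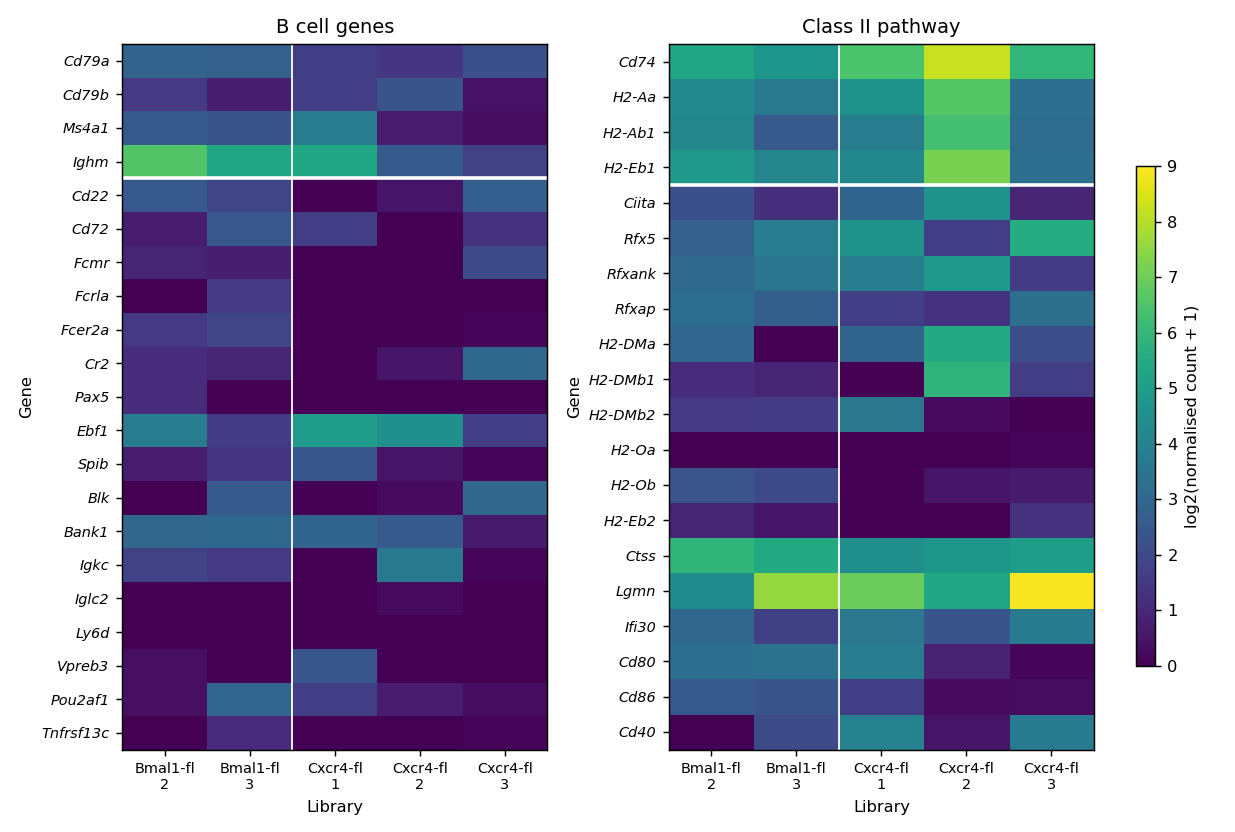
log2(normalised count + 1) of B cell genes (left) and class II pathway genes (right) by library, with the 4 genes described here above the white line. Ciita, H2-DMa and H2-DMb1 share the bright Cxcr4-floxed library 2 column with Cd74, H2-Aa, H2-Ab1 and H2-Eb1, while Igkc and Pax5 stay dark where Ighm is bright.

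Markers of other cells that can carry class II were read beside these values. Of the 9 dendritic cell markers listed, 8 were in the table, and Flt3, Cd209a and Siglech were at 0 reads in Cxcr4-floxed library 2, with 1 read of Xcr1. All of these had 9 reads or fewer in every library, so their low values do not set that library apart. Ccr7, of the same list, had 4 and 27 reads in Bmal1-floxed libraries 2 and 3, against 0, 19 and 12 in Cxcr4-floxed libraries 1, 2 and 3. Its normalised count was highest in Bmal1-floxed library 3 (6.05) and next highest in Cxcr4-floxed library 2 (4.01). Clec9a, best known on conventional dendritic cells, had 65.2 and 37.0 in Bmal1-floxed libraries 2 and 3, against 43.1, 159.2 and 52.5 in Cxcr4-floxed libraries 1, 2 and 3, and so peaked in the class II-rich library. Zbtb46, which endothelial cells also express, had 50.2 and 100.7, against 73.2, 30.2 and 131.2. The 8 summed to 120.6 and 146.2 in Bmal1-floxed libraries 2 and 3, and to 124.8, 193.8 and 185.1 in Cxcr4-floxed libraries 1, 2 and 3, a narrower range than that of the class II genes. Most of each sum was Clec9a and Zbtb46. Zbtb46 was lowest in the library where Clec9a peaked, so the narrow range of the sum does not measure dendritic cell content.

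The 9 macrophage and Kupffer cell markers summed to 63.7 and 106.7 normalised counts in Bmal1-floxed libraries 2 and 3, and to 47.4, 5.70 and 58.8 in Cxcr4-floxed libraries 1, 2 and 3. The sum was thus lowest in the class II-rich library, but not every marker was. Adgre1, the F4/80 antigen, had 54.7 and 33.9 in Bmal1-floxed libraries 2 and 3, against 19.4, 0.633 and 2.58 in Cxcr4-floxed libraries 1, 2 and 3, and so made up most of the sum in Bmal1-floxed library 2. Cd5l, a Kupffer cell product, had 0.301 and 22.4, against 8.61, 0.633 and 9.95, and was lowest in Bmal1-floxed library 2. The 7 monocyte markers summed to 337.6 and 198.0 in Bmal1-floxed libraries 2 and 3, against 178.7, 88.7 and 45.4 in Cxcr4-floxed libraries 1, 2 and 3, without overlap. Csf1r, the receptor for macrophage colony-stimulating factor, led them at 233.3 and 116.8, against 111.9, 48.3 and 27.6, and Ly6c2, a marker of classical monocytes, had 47.5 and 22.4, against 28.0, 8.87 and 2.46. Like Ighm, and unlike class II, the sum of the monocyte markers was lowest in Cxcr4-floxed libraries 2 and 3.

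Of the 12 endothelial markers, 6 were highest in Cxcr4-floxed library 2, the library richest in class II, where 25.4% of all genes tested were highest. Named after their values were seen, Pecam1 and Cdh5 are adhesion proteins of all endothelium, and in that library they had 1378 and 2617 normalised counts. In the other libraries Pecam1 ranged from 439.9 to 673.1 and Cdh5 from 1064 to 1655. Kdr, the receptor for VEGF, had 722.4 and 2674 in Bmal1-floxed libraries 2 and 3, against 1246, 1579 and 6062 in Cxcr4-floxed libraries 1, 2 and 3, and peaked in Cxcr4-floxed library 3. Tek, Robo4, Erg, Stab2 and Clec4g also peaked there. So did the sum of the 12 markers, at 18533, against 9119 in Cxcr4-floxed library 2. The part of endothelial cells in the class II values was not tested.

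**Figure D5:**
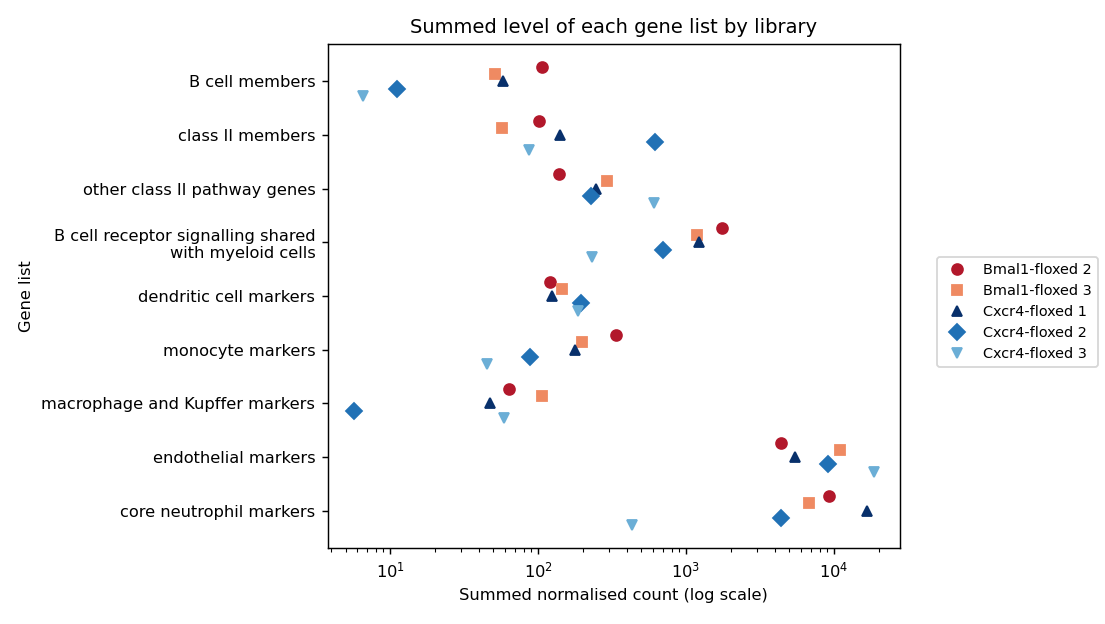
Summed normalised count (log axis) of each gene list, with 1 point per library. The sum of the 4 B cell genes is lowest in Cxcr4-floxed libraries 2 and 3 (11.2 and 6.56), as is that of the monocyte markers (88.7 and 45.4). Taken alone, Cd79b is highest in Cxcr4-floxed library 2 (4.01), and Cd79a is higher in Cxcr4-floxed library 3 (3.63) than in library 1 (2.15, 1 read). The 4 class II genes peak in Cxcr4-floxed library 2 (621.3), where the sum of macrophage and Kupffer markers is lowest (5.70).

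T and NK cell markers were low. Of 9 T cell markers listed, 7 were in the table, and Cd3g was at 0 in every library. Cd3d, a chain of the T cell receptor complex, had 12.03 and 13.01 in Bmal1-floxed libraries 2 and 3, against 4.31, 5.70 and 0.117 in Cxcr4-floxed libraries 1, 2 and 3. Lck, its kinase, had 0.601 and 8.07, against 4.31, 0.211 and 13.1, so the T cell genes did not vary together either. All 5 NK cell markers were below the filter, with Gzma, a granule protease, at 1 to 5 reads per library and Eomes, a lymphocyte transcription factor, at 0 to 6.

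The genes closest in profile to each set were found over the 5 libraries, as the distance between log2(normalised count + 1) profiles centred on their own means. Nearest to the mean profile of the class II genes were Fgfr3 (distance 0.47), Grrp1 (0.476), Maff (0.476) and Plekha8 (0.496). The class II genes themselves lay at 0.459 (H2-Aa), 0.553 (H2-Ab1), 0.94 (H2-Eb1) and 1.09 (Cd74) from that mean. Fgfr3, a growth factor receptor, had 35.2 and 13.9 normalised counts in Bmal1-floxed libraries 2 and 3, against 25.8, 192.5 and 16.6 in Cxcr4-floxed libraries 1, 2 and 3.

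The B cell genes lay farther from their own mean, at 1.38 (Ms4a1) to 2.29 (Ighm). Cd79b, at 1.46 from the class II mean, was closer to that than to its own set (2.14). This distance reflects the size of a difference as well as the order of libraries. Cd79a, Cd79b and Ms4a1 rest on 31 reads or fewer in each library, and Ighm, though farthest, had the same order of libraries as Actb below. Nearest to the B cell mean were 4930518I15Rik (0.0489), Crlf3 (0.155), Fam160a2 (0.187) and Actb (0.247). Actb, the cytoskeletal beta actin, had 5592 and 3679 normalised counts in Bmal1-floxed libraries 2 and 3, against 4279, 2090 and 1238 in Cxcr4-floxed libraries 1, 2 and 3.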

How the data were processed

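The authors deposited 1 table of normalised counts per gene, a non-negative signal, for 5 libraries. RSEM 1.2.3, cutadapt, CASAVA 1.8.2 and the build GRCm38 are listed, without their roles, per the submitters' processing notes. How the counts were scaled, and with which annotation and strand setting, is not given in the sources used here, and reads of overlapping genes cannot be told apart. Per the labels' protocols, RNA was amplified with the Ovation Single Cell kit before TruSeq-type library preparation, which can add spread to low genes.

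Identifiers were matched to symbols (18847 of 19127), and positions and exon lengths come from GENCODE M21. Dividing a library by its smallest positive value gave whole reads for 100% of genes (tolerance 0.01). The main test was that of limma 3.58.1, in R 4.3.3, with an intensity trend and a pseudocount of 1 on the log2 scale. It took the 14632 genes whose CPM averaged 1 or more, two-sided, with Benjamini-Hochberg adjustment over all genes at 0.05. edgeR 4.0.16 and DESeq2 1.42.0 were run on the recovered reads. The limma and edgeR steps were tested on simulated data. Other alternatives were the pseudocount, the filter, 3 scalings, no intensity trend, a replicate block and leaving out each library. No pair of libraries in a group was a duplicate (chi-square per degree of freedom 23.5 to 162).

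The genes and lists were chosen with earlier results of these data known. Besides the 8 genes, the text names fixed genes of each pathway and those with the highest mean in each list, not those that differed most, and the genes nearest in profile. Jchain, Blnk, Xcr1, Flt3, Cd209a, Siglech, Ccr7, Ly6g, Rfxank, Rfxap, Cd3g, Pecam1, Cdh5, Tek, Robo4, Erg and Clec4g were named after their values were seen. Values of 1 further B cell gene are not reported here.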

Additional observations from a re-analysis of the deposited data

How the results depend on the processing

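The values of Cd79a, Cd79b and Ms4a1 rest on 31 reads or fewer in each library, and a 0 in Cxcr4-floxed library 1, with 356872 reads, allows a normalised count of up to 6.46. limma called 0 genes in the main test and under each other limma setting, and edgeR called 0, while DESeq2 on the recovered reads called 13. None of the 8 genes was called under any of the 16 alternatives, with Cd79a and Cd79b lost to the filter at a mean CPM of 5. Ighm, Cd74, Cd79a, H2-Aa and H2-Ab1 kept their direction in all alternatives that tested them. Ighm ran from 1.99 to 3.82, with an unadjusted p under 0.05 in 8 of 16, and Cd74 from -2.31 to -1.18, with one in 11 of 16. Ms4a1 was -0.053 by DESeq2, and the cause was not tested. edgeR and DESeq2 gave larger differences than limma for H2-Eb1 (-1.38 and -1.40, against -0.41), H2-Aa (-1.56 and -1.59, against -0.90) and Cd79b (-0.80 and -0.85, against -0.36). The median of the class II genes ran from -1.70 to -0.094 over the alternatives and that of the B cell genes from 0.40, with a pseudocount of 5, to 1.47 in alternatives that tested all 4. With 1 library left out Cd79b ran from -0.88 to 0.069 and H2-Eb1 from -1.22 to 0.75, and where 1 Bmal1-floxed library is left, it is assumed to vary like the Cxcr4-floxed group.

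Both groups have libraries numbered 2 and 3, but no label says that equal numbers pair samples. Deviations from the group means correlated across genes at 0.28 between the libraries numbered 2 and at 0.39 between those numbered 3, and the 2 Bmal1-floxed deviations mirror each other by construction. With the replicate number as a block limma called 0 genes, Ighm was 3.82 and H2-Ab1 -1.44. These differences equal those without Cxcr4-floxed library 1, because no Bmal1-floxed library is numbered 1, so the block is not a separate check of their size.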
